A study of Mus musculus with 18 samples.

Results

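The data concern circular RNAs (circRNAs) from 9 mouse genes of the ubiquitin system: Ube2g2, Rnf169, Rnf216, Trim33, Cul1, Fbxl17, Fbxo8, Usp3 and Mindy3. A circRNA is a closed RNA made when the end of an exon is spliced back to the start of the same or an earlier exon. Each of the 9 genes hosted 1 circRNA, so 9 of the 474 listed circRNAs are described, from 9 of 416 host genes. They were selected on measured values, since every listed circRNA was above 0 in at least 9 of 18 liver libraries. The genes were also proposed with earlier results of the same table known. For all 9, both ends coincided with exon ends of 1 annotated transcript of the named gene. The genes comprise 1 ubiquitin-conjugating (E2) enzyme, 3 ubiquitin ligases of the RING or RING-between-RING kind, 1 cullin, 2 F-box proteins and 2 deubiquitinases, so Cul1 is the member that is neither RING, F-box, E2 nor deubiquitinase.

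Ubiquitin is a small protein that is attached to other proteins by a relay of an activating enzyme, a conjugating enzyme (E2) and a ligase (E3). RING ligases bring a charged E2 to its substrate, and cullin-RING ligases are built on a cullin scaffold whose substrates are chosen by adaptors such as F-box proteins. Deubiquitinases remove the modification, and chains of ubiquitin mark many proteins for the proteasome. In the liver this system is known for clearing misfolded secretory proteins and for controlling inflammatory and growth factor signalling.

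RNA was taken from livers of male C57BL/6 mice, bought at 6 weeks of age, after 12 weeks of treatment, and 6 mice per group were sequenced. The Cirrhosis-PTH group was injected intraperitoneally with the hepatotoxin carbon tetrachloride (CCl4), 10% in corn oil, and was given 0.25 mg per g a day of oral PTH, the traditional Chinese preparation Pien Tze Huang. The Cirrhosis group received the same CCl4 injections with double distilled water by mouth, and the Control group received corn oil injections with that water. All groups were injected with 10 µl per g, 2 times a week. The protocols describe 15 treated mice per group, of which 6 were sequenced, and give no sequencing batch. PTH was given only together with CCl4, so its effect in an uninjured liver cannot be read from these groups.

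The exons that make up each circle were read from the GENCODE M21 annotation and transcripts on GRCm38, with strand taken from the host gene because the deposited table gives none. For 6 of the genes the results turn on, the 40 bases across the back-splice junction are shown, the only sequence that separates the circle from the linear mRNA. Lower case is the last 20 bases of the circle's last exon and capitals are the first 20 bases of its first exon, 5′ to 3′.
Ube2g2: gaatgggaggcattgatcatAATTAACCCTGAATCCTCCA
Rnf169: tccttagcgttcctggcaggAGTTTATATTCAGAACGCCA
Trim33: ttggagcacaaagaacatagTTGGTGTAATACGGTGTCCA
Cul1: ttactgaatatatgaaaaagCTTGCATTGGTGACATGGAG
Usp3: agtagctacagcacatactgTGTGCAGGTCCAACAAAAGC
Mindy3: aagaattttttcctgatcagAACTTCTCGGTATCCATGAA

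The Ube2g2 circle is short enough to be shown whole. Lower case is exon 2 (36 bases) and capitals are exon 3 (46 bases). On the genome they are parted by an intron of 87 bp.
Ube2g2 circle: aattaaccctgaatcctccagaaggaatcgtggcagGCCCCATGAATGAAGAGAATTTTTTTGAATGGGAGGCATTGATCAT

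Ube2g2 encodes an E2 enzyme that works in degradation of proteins from the endoplasmic reticulum. Its circle (chr10:77630726-77630894, plus strand, coding exons 2 to 3 of 6) was 82 bp long, the shortest of the 435 circles that could be placed in 1 transcript. Only 2 of those 435 were under 100 bp. Both ends of the Ube2g2 circle also lie in an annotated readthrough gene, Gm49325, so its reads cannot be assigned to Ube2g2 alone. The read length is not stated, so whether reads were longer than this circle, and how that bears on its count, is not known here. The exons encode residues 15 to 42 of a protein of 165, and the stretch matching the E2 active-site cysteine pattern, residues 79 to 89, lies outside them.

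Among the ligases, Rnf169, which binds ubiquitin-marked chromatin at DNA breaks, had a circle of 340 bp from coding exons 2 to 4 of 6 (chr7:99935162-99955540, minus strand). The circle spans residues 155 to 268 of 694, beyond the RING-type spacing of cysteines and histidines found at residues 61 to 96. Trim33, a RING ligase known for acting on Smad proteins of the TGF-beta pathway, had a circle of 397 bp from coding exons 2 to 4 of 20 (chr3:103310309-103311513, plus strand). It starts at residue 190 and so holds the end of the RING-type spacing found at residues 139 to 198. Rnf216, a RING-between-RING ligase, had a circle of 255 bp from coding exons 8 to 9 of 17 (chr5:143080224-143081077, minus strand), which encodes residues 452 to 536 of 910.

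The cullin-RING members were Cul1, the scaffold of the SCF ligases, and 2 F-box genes. The Cul1 circle was 306 bp, from coding exons 5 to 7 of 22 (chr6:47501168-47502590, plus strand), and encodes residues 162 to 263 of 776. Fbxl17, an F-box protein that takes part in quality control of BTB-domain proteins, had a circle of 513 bp from coding exons 2 to 4 of 9 (chr17:63471408-63490887, minus strand), the longest of the 9. The intron after it was 86355 bp, against a median of 10469 bp over 434 placed circles. Fbxo8, which carries an F-box and a Sec7 domain, had a circle of 464 bp from exons 2 to 3 of 6 (chr8:56564558-56569410, plus strand). It held 8 bp of 5′ UTR and the start codon, and it encodes residues 1 to 152 of 319, or 47.6% of the protein, the largest share among the 9.

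Of the deubiquitinases, Usp3, an enzyme known for removing ubiquitin from histones, had a circle of 193 bp from coding exons 2 to 3 of 15 (chr9:66562554-66566903, minus strand). It encodes residues 31 to 95 of 520, ahead of the cysteine box of this enzyme family at residues 160 to 171. Mindy3, of a family that trims long ubiquitin chains, had a circle of 386 bp from coding exons 9 to 13 of 15 (chr2:12355277-12386679, minus strand), with 390 bp in 1 of its annotated transcripts. Its exons encode residues 243 to 371 of 444.

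**Figure D1:**
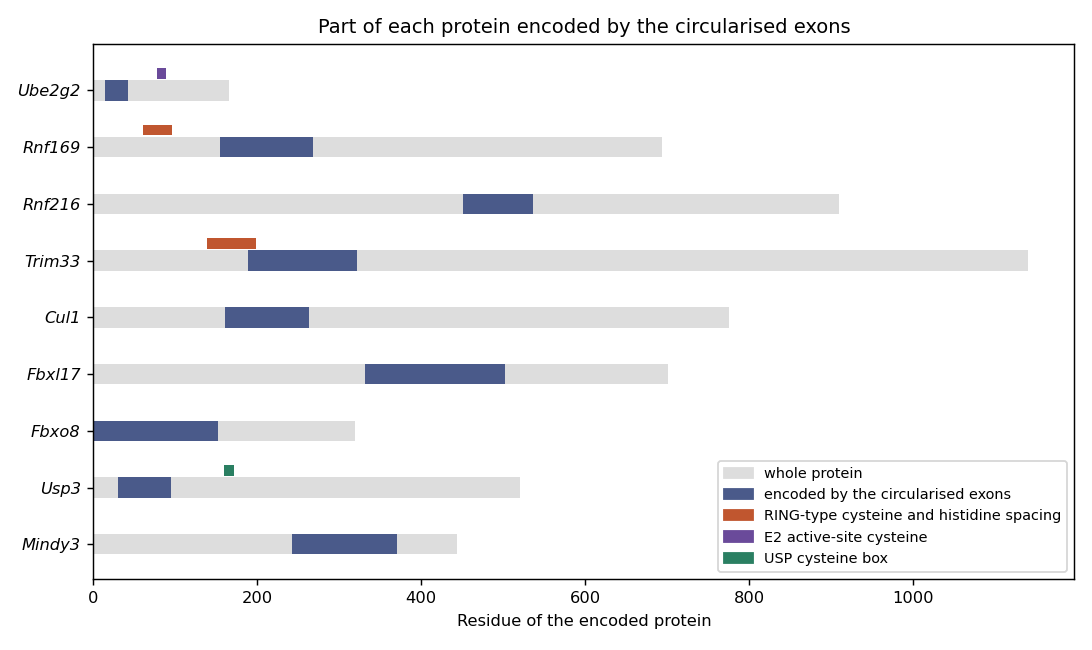
Each bar is a protein drawn to scale in residues, with the part encoded by the circularised exons in blue and pattern matches found by script above it. The blue part covers residues 1 to 152 of Fbxo8, and only the match in Trim33 (residues 139 to 198) reaches into the blue part.

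Structural features of the 9 are set beside those of all placed circles. The median circle of the 9 was 340 bp, against 306 bp over all 435 placed circles. A start at exon 2 was found for 6 of the 9, against 170 of all 435 (39.1%). A length that is a multiple of 3, which leaves the reading frame intact around the circle, was found for 3 of the 9 (Cul1, Fbxl17 and Rnf216), against 151 of 435 (34.7%). The exons were coding throughout in 8 of the 9. No match of the RING pattern was found in Rnf216, which says only that this spacing of letters is not in that sequence.

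Levels are given in CPM, back-splice reads of a circRNA scaled by the authors to a library total that is not stated, and were low for all 9. Each value counts reads across 1 junction and was not divided by length. Every CPM above 0 was a whole multiple of 1 read, so the reads behind each value could be recovered. The table held 38784 reads, 794 to 8431 per library, and 1 read was worth 0.0343 to 0.37 CPM. By group the reads summed to 17817 in Cirrhosis-PTH, 12125 in Cirrhosis and 8842 in Control, and Cirrhosis-PTH 6 alone held 8431. Read numbers of a circRNA are therefore not comparable between groups without scaling. The median was 2 reads per circRNA and library. The 5 most abundant of the 9, by mean over the 18 libraries, were Rnf169 at 1.96 CPM (300 reads), Ube2g2 at 1.06 CPM (143 reads), Cul1 at 0.79 CPM (100 reads), Mindy3 at 0.635 CPM (76 reads) and Fbxl17 at 0.404 CPM (71 reads). Below them were Usp3 at 0.335 CPM, Fbxo8 at 0.293 CPM, Trim33 at 0.222 CPM and Rnf216 at 0.221 CPM, on 27 to 62 reads. The median of all 474 circRNAs was 0.375 CPM, and Rnf169 ranked 16 and Rnf216 ranked 397. Ranges over libraries overlapped between all neighbours in this order, since every one of the 9 had at least 1 library at 0. Trim33 was above 0 in 9 libraries, the least of any listed circRNA, as were 88 circRNAs in all.

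**Figure D2:**
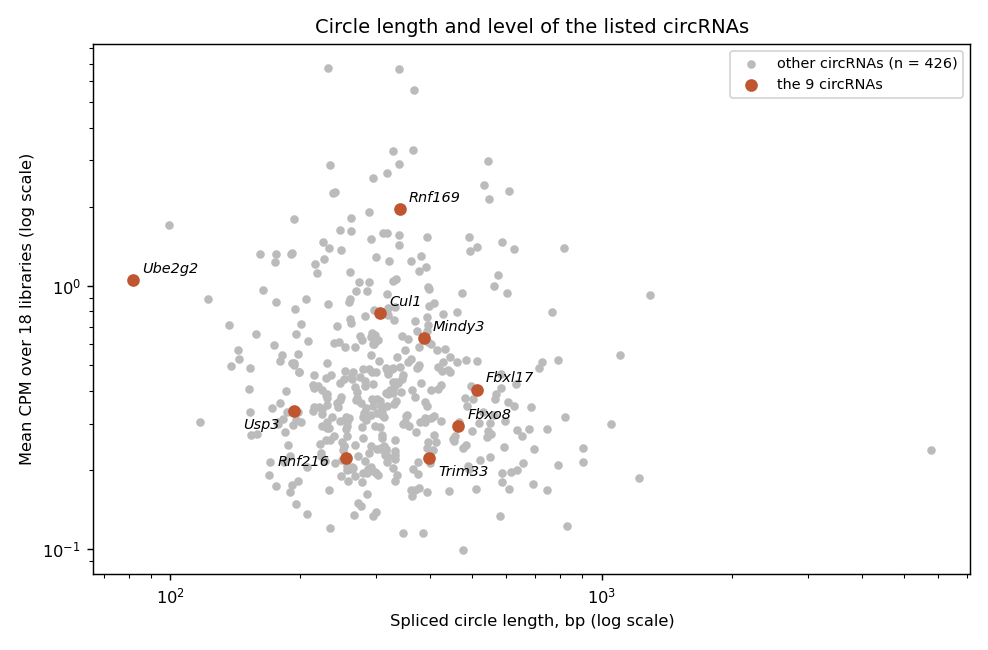
Circle length in bp against mean CPM over 18 libraries, both on log scales, for the 435 placed circRNAs, with the 9 in orange. Ube2g2 lies at the far left, at 82 bp and 1.06 CPM.

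The summed CPM of all listed circRNAs was 246.9 ± 87.9 in Cirrhosis-PTH, 326.9 ± 96.6 in Cirrhosis and 259 ± 91.9 in Control (SD, n = 6 each). CircRNAs of 7 hepatocyte marker genes (8 circRNAs, of a list of 33 genes) summed to 1.41 to 5.43 CPM in Cirrhosis-PTH, 0.922 to 4.57 CPM in Cirrhosis and 2.37 to 6.67 CPM in Control. The 3 circRNAs of the macrophage markers Adgre1 and Mertk (of 21 genes) summed to 0.149 to 1.19 CPM in Cirrhosis-PTH, 0.184 to 6.76 CPM in Cirrhosis and 0 to 1.02 CPM in Control. The lymphocyte list (19 genes) had 1 circRNA, of Ikzf1. Its means were 0.373 ± 0.321 CPM in Cirrhosis-PTH, 0.901 ± 1.03 CPM in Cirrhosis and 0.514 ± 0.351 CPM in Control (SD). Other genes of these lists had no listed circRNA. No circRNA of the stellate cell, endothelial or cholangiocyte lists was in the table. In bulk liver RNA, fewer cells of a type and less RNA per cell cannot be told apart. Linear mRNA of the host genes was not analysed here.

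Between groups, none of the 9 passed an adjusted p of 0.05 in limma, which called 0 of the 474 circRNAs (0%) in each of the 3 comparisons. Under an unadjusted 0.05 stood 2 of the 9 in Cirrhosis against Control, where 58 of all 474 did (12.2%). In Cirrhosis-PTH against Cirrhosis it was 0 of the 9, against 34 of all (7.17%), and in Cirrhosis-PTH against Control 1 of the 9, against 25 of all (5.27%). The members' median difference, on the log2(CPM + 0.143) scale, was 0.06 in Cirrhosis against Control, 0.25 in Cirrhosis-PTH against Cirrhosis and -0.32 in Cirrhosis-PTH against Control, beside 0.12, -0.17 and -0.01 over all 474. These comparisons share libraries, so their values are not independent. The pseudocount draws the fold change of low circRNAs toward 0, while livers at 0 can move a fitted difference away from the ratio of the group means. The SE after each difference was drawn from all circRNAs of similar level, so it is not that circRNA's own spread between mice. The adjusted p-values below are limma's unless another tool is named.

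Ube2g2 had the largest difference among the 9 in Cirrhosis against Control. It ranged from 0.224 to 1.58 CPM in Cirrhosis-PTH (median 1.04), from 0 to 1.28 CPM in Cirrhosis (median 0.413) and from 0.816 to 3.26 CPM in Control (median 1.69). The means were 0.887 ± 0.546 CPM in Cirrhosis-PTH (60 reads), 0.431 ± 0.468 CPM in Cirrhosis (16 reads) and 1.85 ± 0.816 CPM in Control (67 reads; SD, n = 6 each). All 6 Cirrhosis livers were below the Control mean and 5 were below the lowest Control liver, while Cirrhosis 5 overlapped the Control range.

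Ube2g2's fitted difference was -2.14 ± 0.70 (SE) in Cirrhosis against Control, with an unadjusted p of 0.00231 and an adjusted p of 0.157 in limma. Over 24 alternatives the adjusted p ran from 0.0249 to 0.436. The call was made by DESeq2 (adjusted p 0.0249, where 1 of 474 circRNAs was called, 0.211%) and by limma after centring each library on the 26 circRNAs above 0 in all 18 (adjusted p 0.0272, 2 of 474, 0.422%). Both of these scale on the same 26 circRNAs. A filter of 0.5 CPM called 2 of 160 (1.25%), Ube2g2 not among them, and edgeR with TMM called 0 of 474 (0%). Without Cirrhosis 5 the Cirrhosis mean was 0.262 CPM. As a share of the recovered reads, Ube2g2 averaged 3.29 per 1000 listed reads in Cirrhosis-PTH, 1.27 in Cirrhosis and 7.32 in Control.

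The Cirrhosis-PTH mean of Ube2g2 lay between those of the other groups. Against Cirrhosis the fitted difference was 1.06 ± 0.70 (adjusted p 0.646), with 4 of 6 Cirrhosis-PTH livers above the Cirrhosis mean. Against Control it was -1.08 ± 0.70 (adjusted p 0.876), with 6 of 6 below the Control mean and 2 below the lowest Control liver. Hepatocyte marker circRNAs were at 3.61 ± 1.85 CPM in Cirrhosis-PTH, 2.64 ± 1.55 CPM in Cirrhosis and 4.21 ± 1.93 CPM in Control, the same order of means as Ube2g2. The list was mixed: in Cirrhosis against Control its fitted differences ran from -1.07 (Mug1) to 0.50 (Egfr). Egfr was also the most abundant circRNA of that list, at a mean of 1.37 CPM over the 18 livers. Macrophage marker circRNAs were at 0.788 ± 0.42 CPM in Cirrhosis-PTH, 3.07 ± 2.34 CPM in Cirrhosis and 0.545 ± 0.348 CPM in Control. Their part in the Ube2g2 difference was not tested.

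**Figure D3:**
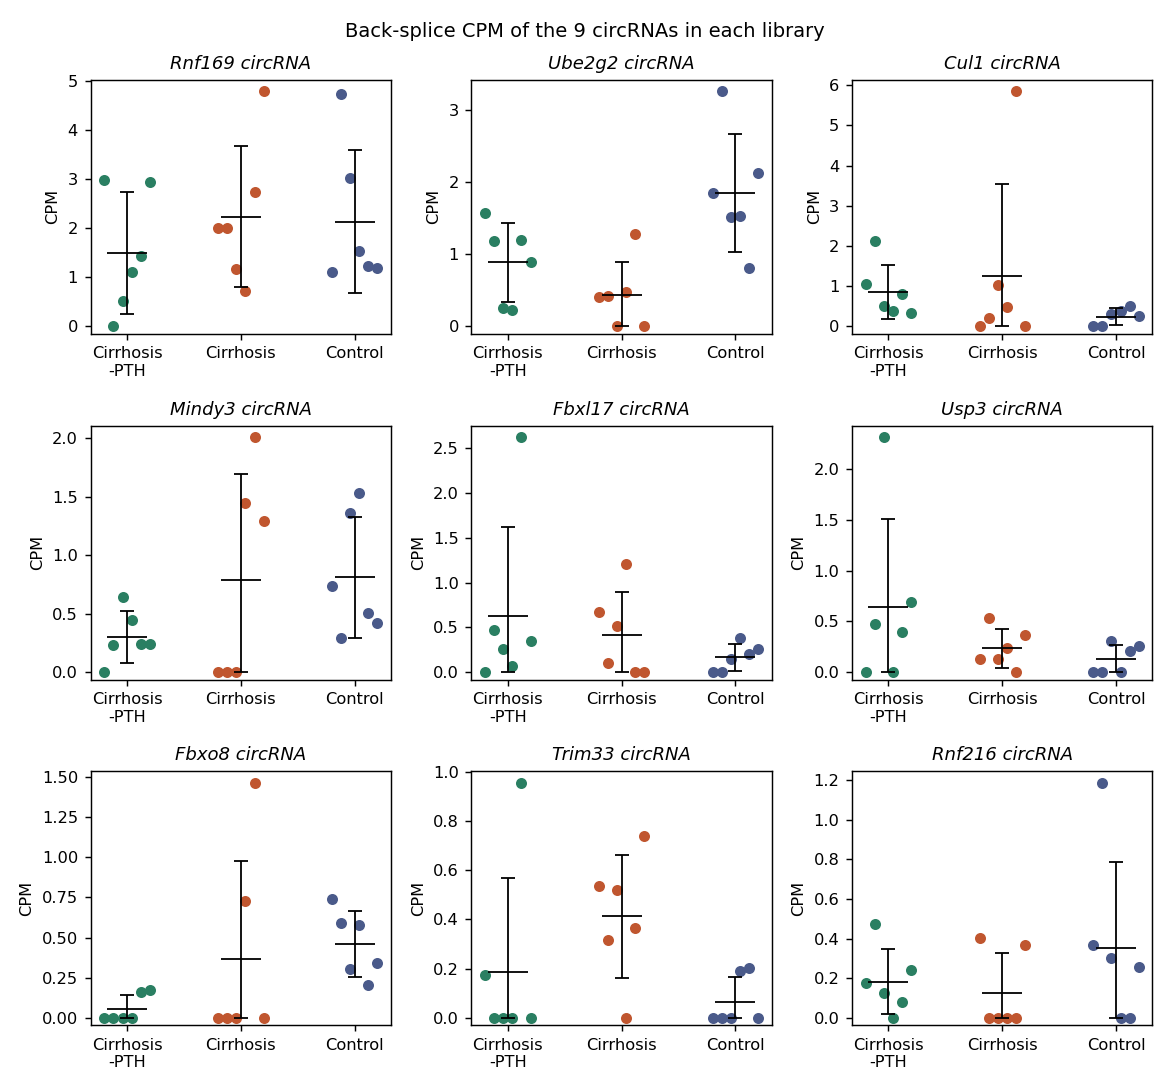
CPM of each of the 9 circRNAs in every liver, 6 per group, as points, with the mean and SD (black; the lower bar is cut at 0). Ube2g2 is lowest in Cirrhosis and Fbxo8 is at 0 in 4 Cirrhosis-PTH livers, while single high libraries set the Cirrhosis mean of Cul1 and the Cirrhosis-PTH means of Fbxl17, Usp3 and Trim33.

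The 3 ligase circRNAs shared no direction. Rnf169 ran from 0 to 2.98 CPM in Cirrhosis-PTH (median 1.27), from 0.725 to 4.79 CPM in Cirrhosis (median 2.01) and from 1.11 to 4.74 CPM in Control (median 1.38). The groups overlapped widely, and only 1 liver, Cirrhosis-PTH 2, held no Rnf169 read. The Rnf169 difference was 0.06 ± 0.61 in Cirrhosis against Control (adjusted p 0.982), and its sign turned negative after scaling to the summed CPM, with TMM in edgeR, in DESeq2, and after centring, which lowered every circRNA alike in this comparison. It was -0.90 ± 0.61 in Cirrhosis-PTH against Cirrhosis (adjusted p 0.646) and -0.84 ± 0.61 in Cirrhosis-PTH against Control (adjusted p 0.876), with 4 of 6 Cirrhosis-PTH livers below each mean.

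Trim33 ranged from 0 to 0.953 CPM in Cirrhosis-PTH (median 0), from 0 to 0.738 CPM in Cirrhosis (median 0.441) and from 0 to 0.204 CPM in Control (median 0). The reads were 13 in Cirrhosis-PTH, 17 in Cirrhosis and 3 in Control. Of the 6 Cirrhosis livers, 5 were above the highest Control liver and Cirrhosis 4 was at 0. Those 5 are among the 9 libraries where Trim33 was above 0, with 2 each from Cirrhosis-PTH and Control. No listed circRNA was above 0 in fewer, so the Trim33 separation and p below are not independent of the listing. In the 4 Control livers at 0, the limit that a count of 0 allows (3 reads) was 0.255 to 1.11 CPM. Those limits reach into and above the Cirrhosis values. The difference was 1.35 ± 0.62 in Cirrhosis against Control (unadjusted p 0.0284, adjusted p 0.374). In Cirrhosis-PTH against Cirrhosis it was -1.08 ± 0.62 (adjusted p 0.633). Cirrhosis-PTH 5 alone held 12 of the 13 Cirrhosis-PTH reads, and the mean was 0.035 CPM without it, against 0.188 CPM with it. The macrophage marker circRNAs given above also had their highest mean in Cirrhosis. The lymphocyte marker circRNA, of Ikzf1, had its highest mean there too. Its median, however, was 0.467 CPM in Cirrhosis and 0.599 CPM in Control, and its fitted difference between them was 0.12 (adjusted p 0.964). The part of these marker circRNAs in the Trim33 values was not tested.

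Rnf216 had the lowest mean of the 9, by 0.221 against 0.222 CPM for Trim33, while its median over the 18 libraries (0.152 CPM) was above that of Trim33 (0.0876 CPM). It rested on 12 reads in Cirrhosis-PTH, 5 in Cirrhosis and 10 in Control. It ranged from 0 to 0.472 CPM in Cirrhosis-PTH (median 0.152), from 0 to 0.402 CPM in Cirrhosis (median 0) and from 0 to 1.18 CPM in Control (median 0.279). The groups overlapped, and the differences were -0.73 ± 0.64 in Cirrhosis against Control (adjusted p 0.709), 0.41 ± 0.64 in Cirrhosis-PTH against Cirrhosis (adjusted p 0.829) and -0.32 ± 0.64 in Cirrhosis-PTH against Control (adjusted p 0.96). Without Control 2 the Control mean was 0.186 CPM, against 0.352 CPM with it.

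Of the cullin-RING members, Fbxo8 was the one whose groups did not overlap. It was at 0 in Cirrhosis-PTH 1, 2, 3 and 4 and at 0.159 and 0.171 CPM in Cirrhosis-PTH 5 and 6. In Cirrhosis it was at 0 in 4 livers and at 0.725 and 1.46 CPM in Cirrhosis 4 and 5, and in Control it ranged from 0.204 to 0.739 CPM (median 0.458). The Cirrhosis-PTH livers, on 7 reads, were thus all below the Control livers, on 15 reads, a separation found for 2 of all 474 circRNAs in that comparison (0.422%). A single read was worth 0.3695 CPM in Control 1, 0.296 CPM in Control 2 and 0.1918 CPM in Control 6. Any read in those livers lies above 0.171 CPM, so the separation depends in part on library depth. Control gave 6 of the 10 libraries where Fbxo8 was above 0, with 2 each from Cirrhosis-PTH and Cirrhosis. The least of any listed circRNA was 9, so this separation and the p below are not independent of the listing. No such separation was found among the 9 in Cirrhosis against Control (1 of 474, 0.211%) or in Cirrhosis-PTH against Cirrhosis (2 of 474, 0.422%).

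The Fbxo8 difference was -1.63 ± 0.67 in Cirrhosis-PTH against Control (unadjusted p 0.0153, adjusted p 0.688). In Cirrhosis against Control it was -0.98 ± 0.67 (adjusted p 0.579) and in Cirrhosis-PTH against Cirrhosis -0.65 ± 0.67 (adjusted p 0.742). Each Control liver held 2 to 4 Fbxo8 reads. The limit that a count of 0 allows (3 reads) lay between 0.224 and 0.708 CPM in the single Cirrhosis-PTH livers at 0. With the reads of each group pooled, Fbxo8 stood at 0.096 CPM in Cirrhosis-PTH, 0.277 CPM in Cirrhosis and 0.38 CPM in Control.

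Cul1 was at 0.343 to 2.12 CPM in Cirrhosis-PTH (median 0.654), 0 to 5.84 CPM in Cirrhosis (median 0.348) and 0 to 0.51 CPM in Control (median 0.279). All 6 Cirrhosis-PTH livers were above the Control mean and 4 were above the highest Control liver. Among those 4, Cirrhosis-PTH 3 at 0.5136 CPM (4 reads) passed Control 7 at 0.5097 CPM (5 reads) by less than the worth of 1 read. Control was at 0 in 2 livers, where the limit (3 reads) was 0.888 and 1.11 CPM. The difference was 1.40 ± 0.73 in Cirrhosis-PTH against Control (unadjusted p 0.0567, adjusted p 0.876). Against Cirrhosis it was 0.62 ± 0.73 (adjusted p 0.792) on the log2 scale, although the Cirrhosis-PTH mean, 0.867 CPM, was below the Cirrhosis mean, 1.26 CPM, and edgeR and DESeq2 gave it a negative sign. Cirrhosis 5 held 32 of the 44 Cirrhosis reads, and the Cirrhosis mean was 0.346 CPM without it. For Cirrhosis against Control the Cul1 difference was 0.78 ± 0.73 (adjusted p 0.739).

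Fbxl17 ranged from 0 to 2.62 CPM in Cirrhosis-PTH (median 0.3), from 0 to 1.21 CPM in Cirrhosis (median 0.312) and from 0 to 0.384 CPM in Control (median 0.178). Cirrhosis-PTH 5 held 33 of the 48 Cirrhosis-PTH reads, and the mean without it was 0.229 CPM, against 0.628 CPM with it. The groups overlapped and the differences were 0.51 ± 0.72 in Cirrhosis against Control (adjusted p 0.818), 0.25 ± 0.72 in Cirrhosis-PTH against Cirrhosis (adjusted p 0.937) and 0.76 ± 0.72 in Cirrhosis-PTH against Control (adjusted p 0.876).

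The 2 deubiquitinase circRNAs had fitted differences of opposite sign in Cirrhosis-PTH against Control, neither past the threshold. Usp3 was at 0 to 2.31 CPM in Cirrhosis-PTH (median 0.435), 0 to 0.53 CPM in Cirrhosis (median 0.188) and 0 to 0.303 CPM in Control (median 0.102). It had 45 reads in Cirrhosis-PTH, 10 in Cirrhosis and 7 in Control, groups that differ in depth. Of the 45, Cirrhosis-PTH 6 held 20, at 0.686 CPM. With the reads of each group pooled, Usp3 stood at 0.617 CPM in Cirrhosis-PTH, 0.252 CPM in Cirrhosis and 0.177 CPM in Control. Of the 6 Cirrhosis-PTH livers, 4 were above the highest Control liver and the other 2 were at 0. Control was at 0 in 3 livers, where the limit (3 reads) was 0.575 to 1.11 CPM. The difference was 1.04 ± 0.70 in Cirrhosis-PTH against Control (adjusted p 0.876), 0.55 ± 0.70 in Cirrhosis-PTH against Cirrhosis (adjusted p 0.801) and 0.50 ± 0.70 in Cirrhosis against Control (adjusted p 0.818). Without Cirrhosis-PTH 3 the Cirrhosis-PTH mean was 0.311 CPM, against 0.644 CPM with it.

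Mindy3 ranged from 0 to 0.642 CPM in Cirrhosis-PTH (median 0.239), from 0 to 2.01 CPM in Cirrhosis (median 0.645) and from 0.296 to 1.53 CPM in Control (median 0.624). The means were 0.301 ± 0.219 CPM in Cirrhosis-PTH, 0.792 ± 0.899 CPM in Cirrhosis and 0.812 ± 0.518 CPM in Control (SD, n = 6 each). Cirrhosis livers fell into 3 with no Mindy3 read (Cirrhosis 1, 2 and 3) and 3 at 1.29 to 2.01 CPM (Cirrhosis 4, 5 and 6). The libraries differed in the same way. All listed circRNAs summed to 206.9 to 293.4 CPM in Cirrhosis 1, 2 and 3 and to 385.5 to 435.4 CPM in Cirrhosis 4, 5 and 6. Whether this bears on the Mindy3 values was not tested. In Cirrhosis-PTH against Control the difference was -1.11 ± 0.73 (adjusted p 0.876), with 4 of 6 Cirrhosis-PTH livers below the lowest Control liver. That lowest value, 0.296 CPM in Control 2, was a single read. Cirrhosis-PTH 1 was at 0, where the limit (3 reads) was 0.526 CPM. The Mindy3 difference was -0.78 ± 0.73 in Cirrhosis against Control (adjusted p 0.739) and -0.33 ± 0.73 in Cirrhosis-PTH against Cirrhosis (adjusted p 0.918).

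**Figure D4:**
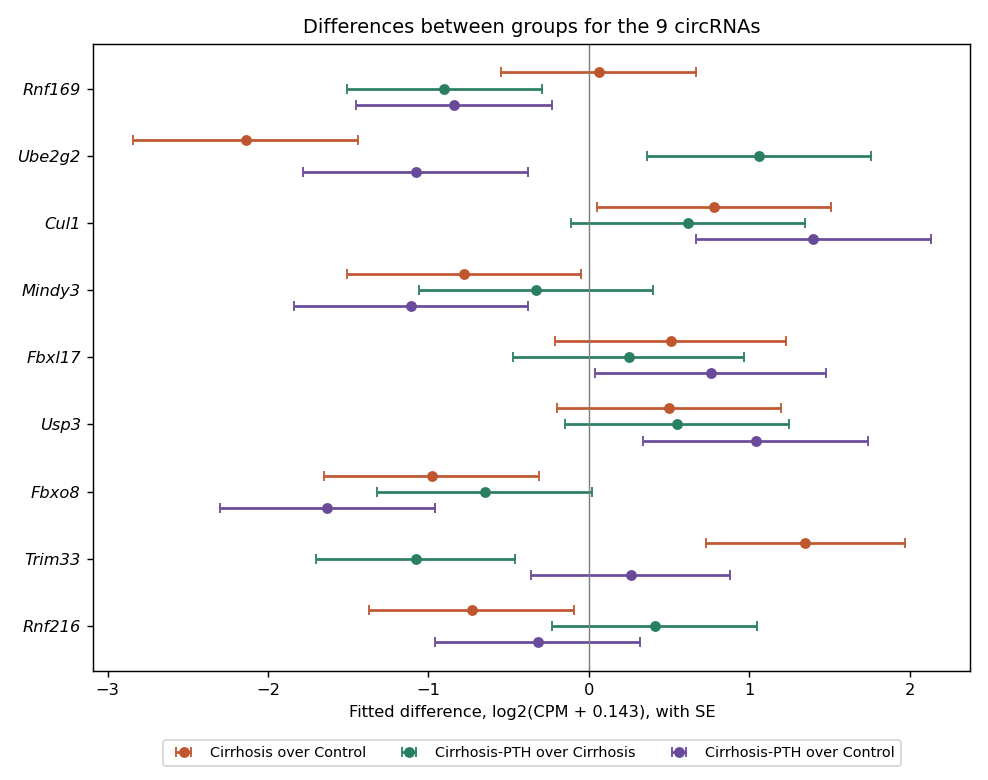
Fitted differences on the log2(CPM + 0.143) scale with SE, for the 9 circRNAs from most to least abundant, in 3 comparisons. Ube2g2 in Cirrhosis over Control, at -2.14, is farthest from 0, and no difference passed an adjusted p of 0.05 in this limma fit.

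Across the 9, 11 of 27 group means moved by over 1.5 times without their highest library. Summed over the 9, the level was 5.25 ± 1.86 CPM in Cirrhosis-PTH, 6.28 ± 3.94 CPM in Cirrhosis and 6.21 ± 2.22 CPM in Control, or 2.18% of the listed CPM in Cirrhosis-PTH, 1.83% in Cirrhosis and 2.45% in Control. The highest sum in Cirrhosis, 13.7 CPM, was in Cirrhosis 5.

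The other genes of the ubiquitin lists, which add HECT ligases to the classes above, hosted 21 circRNAs from 19 genes: 7 of RING, RING-between-RING or U-box ligases, 5 of HECT ligases, 7 of cullins, adaptors and substrate receptors, and 2 of deubiquitinases. No activating enzyme, other E2 or proteasome gene of the lists hosted a listed circRNA. None of the 21 passed an adjusted p of 0.05 in limma in any comparison. Under an unadjusted 0.05 stood 1 of the 21 in each comparison, where all 474 gave 12.2% in Cirrhosis against Control, 7.17% in Cirrhosis-PTH against Cirrhosis and 5.27% in Cirrhosis-PTH against Control. They included the substrate receptors Dcaf8, higher in Cirrhosis-PTH than in Cirrhosis, and Fbxo47, higher in Cirrhosis-PTH than in Control, both named after their values were seen. Their median difference was 0.31 in Cirrhosis against Control, 0.06 in Cirrhosis-PTH against Cirrhosis and 0.35 in Cirrhosis-PTH against Control, beside 0.12, -0.17 and -0.01 over all 474. Above 0 were 14 of 21 in the first of these comparisons (all 474, 56.1%), 12 in the second (42%) and 16 in the last (49.8%).

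Ube3a, a HECT ligase, was the most abundant ubiquitin circRNA, at 7.98 ± 4.2 CPM in Cirrhosis-PTH, 6.78 ± 2.31 CPM in Cirrhosis and 5.44 ± 3.18 CPM in Control. Its differences were 0.49 ± 0.39 in Cirrhosis against Control (adjusted p 0.671) and 0.57 ± 0.39 in Cirrhosis-PTH against Control (adjusted p 0.876). The RING-type genes Rnf214 and Rnf114 (exons 4 to 6) averaged 1.32 and 0.674 CPM over all livers. Rmnd5a, of the CTLH ligase complex, and Dcun1d4, a factor in cullin neddylation, averaged 0.459 and 0.375 CPM. Zranb1, a deubiquitinase, and Senp1, a SUMO protease kept in that list, averaged 1.06 and 0.519 CPM. None of the last 6 genes named had an unadjusted p under 0.05 in limma in any comparison.

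**Figure D5:**
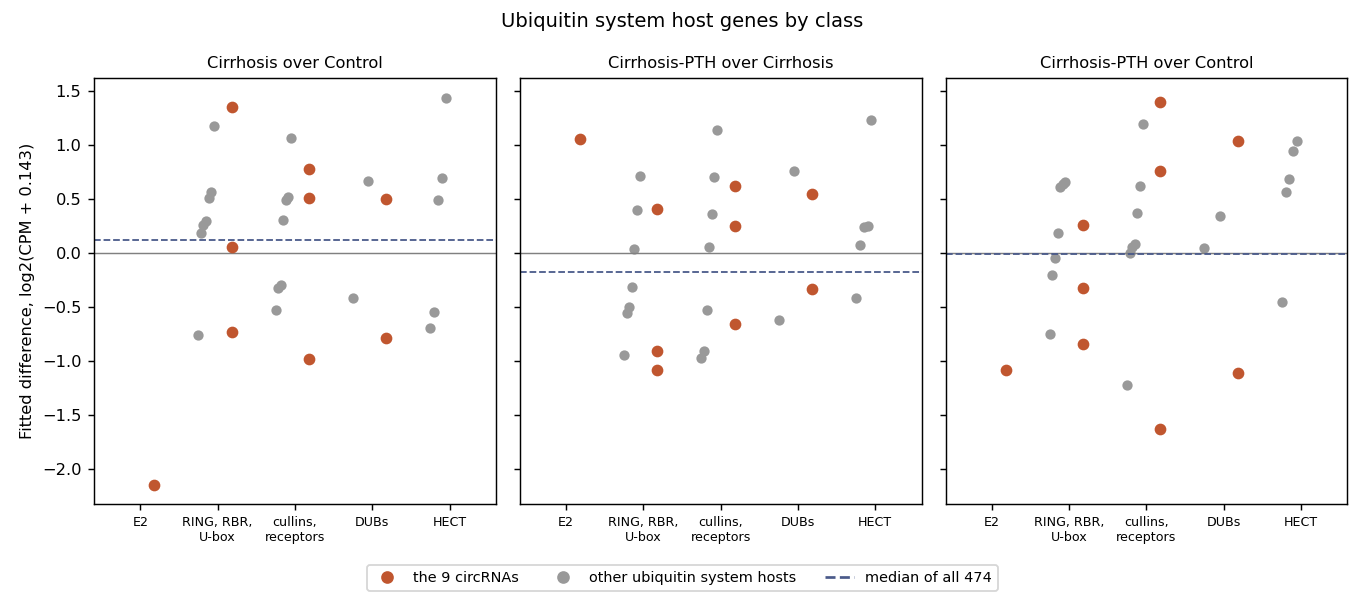
Fitted differences on the log2(CPM + 0.143) scale for the 9 circRNAs (orange) and the 21 of other ubiquitin system hosts (grey), by class, with the median of all 474 dashed. Ube2g2, the lone E2 host, is the lowest point in Cirrhosis over Control, at -2.14.

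Profiles over the 18 libraries were compared by Spearman correlation of CPM, which also carries what libraries share in depth and scaling. The closest circRNAs to Rnf169 came from Ptk2 (rho 0.73), Fam120a (0.69) and Ttc39c (0.69), against a median of 0.13 over all others. Closest to Ube2g2 were a circRNA on chromosome 11, 16687937 to 16699485, that the annotation places in no gene (rho 0.75), and those of Hacl1 (0.70) and Bcl2l13 (0.66), against a median of 0.10.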

How the data were processed

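Liver RNA of 18 mice was sequenced after removal of ribosomal RNA, and no step that digests linear RNA is named, per the labels' protocols. The authors deposited circRNA levels as CPM. Per the submitters' processing notes the tools included HISAT2 2.2.1, StringTie 2.1.5, cutadapt 4.2 and Bowtie 1.3.1, with GRCm38. The denominator of the CPM is not stated there. All 5886 values above 0 (100%) were whole reads within 0.01, and these recovered reads were used for the count tests.

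Differences were fitted with limma 3.58.1 (trend option, R 4.3.3) on log2(CPM + 0.143), with 18 libraries in 1 model, 2-sided tests, and p-values adjusted by Benjamini-Hochberg across the whole table of 474 (threshold 0.05). The smallest CPM above 0 was found in each library, and the median of these was added as pseudocount. Requiring values above 0 in 6 libraries removed 0 circRNAs. Alternatives were edgeR 4.0.16, DESeq2 1.42.0, other pseudocounts, filters and scalings, a replicate block on shared title numbers and leaving out each library. The fits were also run on simulated data with changes larger than nearly all those seen here, so that run does not speak for differences of this size. Back-splice reads carry no molecular identifiers, so limits at a count of 0 cover counting error only, and each library is 1 mouse.

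Circles were placed with GENCODE M21, and Python 3.11.15 was used for the rest. Patterns were searched in translated coding sequence: RING-type pairs of cysteines and histidines at set spacings, His-Pro-Asn followed by the E2 cysteine, and the cysteine box of ubiquitin-specific proteases. The members and gene lists were chosen with earlier results of these data known. Every member was named, together with the 2 most abundant circRNAs of each other class and the 3 circRNAs most like Rnf169 and Ube2g2. A circRNA that this rule names is not reported here. The complementarity of flanking introns, which had been planned, was not analysed here.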

Additional observations from a re-analysis of the deposited data

Results flagged for a closer look

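In 5 of the 27 member and group combinations (18.5%) the highest library stood far from the other 5, by the gap to the next library as a share of the range of the group (Dixon's criterion). Chance flags about 1 in 20 such groups, and values with many zeros are not normally distributed. Cul1 was at 5.84 CPM in Cirrhosis 5, on 32 reads, against 1.04 CPM in the next Cirrhosis library. Fbxl17 was at 2.62 CPM in Cirrhosis-PTH 5, on 33 reads, against 0.472 CPM in the next. Trim33 was at 0.953 CPM in the same liver, on 12 reads, against 0.175 CPM. Usp3 was at 2.31 CPM in Cirrhosis-PTH 3, on 18 reads, against 0.686 CPM. Rnf216 was at 1.18 CPM in Control 2, on 4 reads, against 0.369 CPM. These 5 values came from 4 libraries.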

How the results depend on the processing

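Of 633 values of the 27 member differences under alternatives, 606 kept their direction and side of the threshold, 25 reversed and 2 passed it, both Ube2g2 in Cirrhosis against Control (-2.72 after centring and -2.59 in DESeq2). In Cirrhosis against Control, limma's count of calls over all circRNAs was 0, with 2 at a mean of 0.5 CPM (Rasa2 and Rock1), 2 after centring (Hnrnpu and Ube2g2) and 1 in DESeq2. In Cirrhosis-PTH against Cirrhosis it was 0, with 1 (Wac) in edgeR with TMM, edgeR without TMM and DESeq2. Leaving out single libraries gave 0 to 1 in both (1 without Control 3, Rock1, and 1 without Cirrhosis 1, 2 or 3, Wac), and in Cirrhosis-PTH against Control 0 throughout. Centring shifts every circRNA of a comparison alike: the median of all became -0.46 (0.12 before) in Cirrhosis against Control, 0.34 (-0.17 before) in Cirrhosis-PTH against Cirrhosis and -0.07 (-0.01 before) in Cirrhosis-PTH against Control.

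In Cirrhosis against Control, Rnf169 reversed to -0.52 after centring, -0.26 scaled to the summed CPM, -0.18 in edgeR with TMM, -0.38 in DESeq2 and -0.03 with the replicate block, and it ran from -0.20 to 0.32 without single libraries. Fbxl17 (-0.06) and Usp3 (-0.08) turned negative after centring. In Cirrhosis-PTH against Cirrhosis, Cul1 reversed to -0.08 in edgeR with TMM, -0.59 without TMM and -0.26 in DESeq2. Mindy3 reversed to 0.19 after centring, 0.20 scaled to the summed CPM, and ran from -0.69 to 0.10 without single libraries, and Fbxl17 ran from -0.27 to 0.60. In Cirrhosis-PTH against Control, Trim33 reversed to -0.02 with the replicate block and ran from -0.19 (without Cirrhosis-PTH 5) to 0.44 (without Control 7), and Rnf216 from -0.59 to 0.05 (without Control 2). The reversals after centring are that common shift, and the cause of the others was not tested. Values with the replicate block rest on fewer libraries, since only title numbers shared by the groups compared were kept.

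Title numbers are not stated to pair the mice. Deviations of same-numbered libraries correlated at -0.06 to 0.08, with 0 pairs over 0.1. The best match was the own number for 3 of 4, 1 of 6 and 0 of 4 pairs. At so few reads per value, low correlations cannot settle whether the numbers pair mice. The replicate block kept only title numbers shared by the groups compared, 4 in both comparisons with Control and 6 in the other. Its calls were 0 in all 3 comparisons, with 38, 32 and 27 under an unadjusted 0.05. The main fit of all 18 libraries gave 58, 34 and 25, so these counts differ in libraries as well as in blocking. The typical value rested on 2 reads. The median SE, 0.694, holds counting error together with the spread between mice, averaged over circRNAs of similar level. It is not the spread of a single circRNA: Cul1 and Mindy3 both had an SE of 0.73, with Cirrhosis SDs of 2.28 and 0.899 CPM.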
